A study of Mus musculus with 14 samples.

Results

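The 9 genes described here encode the apical endocytic machinery of the kidney proximal tubule. They are the receptors Lrp2 (megalin), Cubn (cubilin) and Amn (amnionless), the adaptor Dab2, the endosomal proteins Clcn5 and Ocrl, the megalin chaperone Lrpap1, and Folr1 and Fcgrt, which bind folate and IgG or albumin. They were taken by name for their place in this system, with earlier results of these data known. All 9 were found among the 24411 gene symbols listed for these kidneys, and all 9 were among the 14300 genes that passed the filter on low counts.

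Bulk RNA sequencing, in which the RNA of every cell of a tissue is counted together, was carried out on kidneys of male C57/B6 mice aged 8 weeks. There were 4 libraries at day 0 and 5 each at day 1 and day 3 after renal ischemia/reperfusion injury (IRI), a model of acute kidney injury in which the blood supply is stopped and restored. The labels do not say whether the day 0 mice had sham surgery, and they name no transgene or drug in any group. The labels number the libraries of a day but do not say that each is a separate mouse, so p-values measure the spread among these libraries.

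In the healthy kidney, megalin and the cubilin-amnionless complex sit on the brush border of proximal tubule cells and take up albumin, vitamin-binding proteins and other small proteins that pass the glomerular filter. Dab2 links megalin to the clathrin coat. The vesicles are then acidified with the help of the chloride-proton exchanger ClC-5, and ligands go to the lysosome while receptors return to the membrane. Loss of ClC-5 or of the lipid phosphatase OCRL causes low molecular weight proteinuria in people, in Dent disease and Lowe syndrome.

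Between 12485579 and 20476979 reads per library lay on genes, and the 9 genes had between 188 (Ocrl) and 56927 (Lrp2) reads in a library. Of the markers of the labelled tissue, 17 of 18 proximal tubule genes passed the filter, and their summed level at day 0 ranged from 59694 to 63036 CPM, a gene's reads scaled to a common library size. The marker that did not pass was Ass1, an enzyme gene known to be abundant in this tissue, which had 0 to 6 reads in every library, and the cause was not tested. The number in the authors' library names has 1 digit in some libraries and 3 digits in others. All 4 day 0 libraries, replicates 3, 4 and 5 of day 1 and replicates 4 and 5 of day 3 have 1-digit numbers. Replicates 1 and 2 of day 1 and replicates 1, 2 and 3 of day 3 have 3-digit numbers. No label says what the number stands for. It is taken here as what may be a technical batch. For 3-digit libraries it cannot be told apart from the day when they are compared with day 0.

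The gene models, in GRCm38 (mm10), placed Lrp2 at chr2:69424340-69586065 on the minus strand with up to 79 exons, and Cubn on the same chromosome and strand at chr2:13276338-13491813 with up to 67. Fcgrt lay at chr7:45092990-45103851 on the minus strand. Amn lay at chr12:111271095-111276426 (plus), Dab2 at chr15:6299788-6440712 (plus), Lrpap1 at chr5:35091501-35105766 (minus) and Folr1 at chr7:101858331-101870788 (minus). Clcn5 at chrX:7153810-7319358 (minus) and Ocrl at chrX:47912387-47965868 (plus) are both on the X chromosome. An exon of Cubn overlapped Gm13270 and an exon of Dab2 overlapped Gm18888, each on the opposite strand, and the counts used were those of 1 strand.

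RefSeq start sites were matched for 8 of the 9 genes. The stretches of 200 bases that end 51 bases before the start are shown for the 2 receptors whose levels went down together and for Fcgrt, which went the other way. They are written 5′ to 3′ on the gene's strand (build GRCm38.p6), with matches to GGGCGG, the core of the Sp1 GC box, in capitals.
Lrp2, chr2:69586080-69586279, minus: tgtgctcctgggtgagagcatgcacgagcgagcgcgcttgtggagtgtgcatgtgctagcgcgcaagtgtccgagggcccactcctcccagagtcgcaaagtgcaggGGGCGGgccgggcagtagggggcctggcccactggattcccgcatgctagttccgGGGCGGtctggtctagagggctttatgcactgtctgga
Cubn, chr2:13491927-13492126, minus: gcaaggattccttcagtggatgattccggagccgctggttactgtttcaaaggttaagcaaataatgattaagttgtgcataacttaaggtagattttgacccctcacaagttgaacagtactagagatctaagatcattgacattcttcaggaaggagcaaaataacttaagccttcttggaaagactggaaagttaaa
Fcgrt, chr7:45103873-45104072, minus: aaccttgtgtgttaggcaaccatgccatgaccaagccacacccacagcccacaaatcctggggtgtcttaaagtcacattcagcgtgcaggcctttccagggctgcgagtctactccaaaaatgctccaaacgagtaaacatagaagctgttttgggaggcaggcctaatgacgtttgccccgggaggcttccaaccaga
The stretches differed in composition, with 65.0% G and C for Lrp2, 52.5% for Fcgrt and 38.5% for Cubn. GGGCGG was searched on both strands and lay in the Lrp2 stretch at 143 to 138 and at 88 to 83 bases before the start. It was also in the stretches of Lrpap1 and Clcn5, which makes 3 of the 10 stretches of these genes, and in 24.6% of 32851 RefSeq stretches of the same length. GTTAAT, the half-site bound by HNF1 factors (5.33% of all stretches), was in 1 stretch of Dab2. TCACGTG, the core bound by TFEB (2.03%), and CAAAGTCCA, a form of the site bound by HNF4A (0.295%), were in none. A match is a description of letters only.

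At day 0 the levels per kilobase of exon differed widely among the 9 genes. Lrp2 was highest at 194 ± 8.85 CPM per kb (SD, n = 4). Folr1 (166 ± 2.44) and Lrpap1 (160 ± 7.40) followed, and their libraries overlapped. Amn (70.7 ± 9.80) and Dab2 (63.4 ± 3.31) overlapped as well, as did Fcgrt (45.1 ± 4.87) and Cubn (36.6 ± 3.75). The endosomal proteins were lowest, Clcn5 at 4.56 ± 0.354 and Ocrl at 3.13 ± 0.307 CPM per kb.

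At day 1, 5 of the 9 genes differed from day 0. The receptors Lrp2 and Cubn and the endosomal genes Clcn5 and Ocrl fell, and the Fc receptor Fcgrt rose. Mean Lrp2 was 22.5% of its day 0 level and mean Fcgrt was 174%. Of all genes tested, 42.1% differed at day 1, 23.3% higher and 18.7% lower (edgeR's quasi-likelihood test with Benjamini-Hochberg adjustment over the 14300 genes, threshold 0.05, used for every adjusted p-value here). The median log2 fold change of the 9 genes was -0.56, beside 0.01 over all genes tested.

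At day 3, 2 of the 9 genes differed from day 0, Lrp2 and Cubn, both lower, beside 33.3% of all genes tested (19.5% higher, 13.8% lower). This is fewer than at day 1, but the difference between the counts was not itself tested. Clcn5 and Ocrl rose between day 1 and day 3 and were the 2 genes of 9 that differed between these days, beside 15.9% of all genes. The median log2 fold change of the 9 at day 3 was -0.59, beside 0.05 over all genes. Without TMM scaling (a correction of library sizes for composition) the median of all genes at day 3 moved to 0.19. The calls over all genes then went from 2783 higher and 1974 lower to 3625 and 1286, and of the 9 genes Fcgrt alone was called, as higher.

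Counted within the number formats, 6 of the 9 genes differed from day 0 among the 1-digit libraries at day 1 (beside 58.5% of all genes tested) and 6 at day 3 (53.7%). Among the 3-digit libraries, 8 differed at day 1 (41.6%) and 0 at day 3 (32.4%), where 3 of the 9 had an unadjusted p under 0.05. Between day 1 and day 3, 6 of the 9 differed among 1-digit libraries (32% of all genes) and 4 among 3-digit libraries (13.9%). Leaving out replicate 1 or 2 of day 1, the 3-digit libraries of that day, leaves 1 library in that group. The same holds for the 1-digit libraries of day 3, replicates 4 and 5. Calls from such fits, whose spread comes from the other groups, are not set beside these counts. Lrp2 and Cubn fell at day 1 in both formats.

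**Figure D1:**
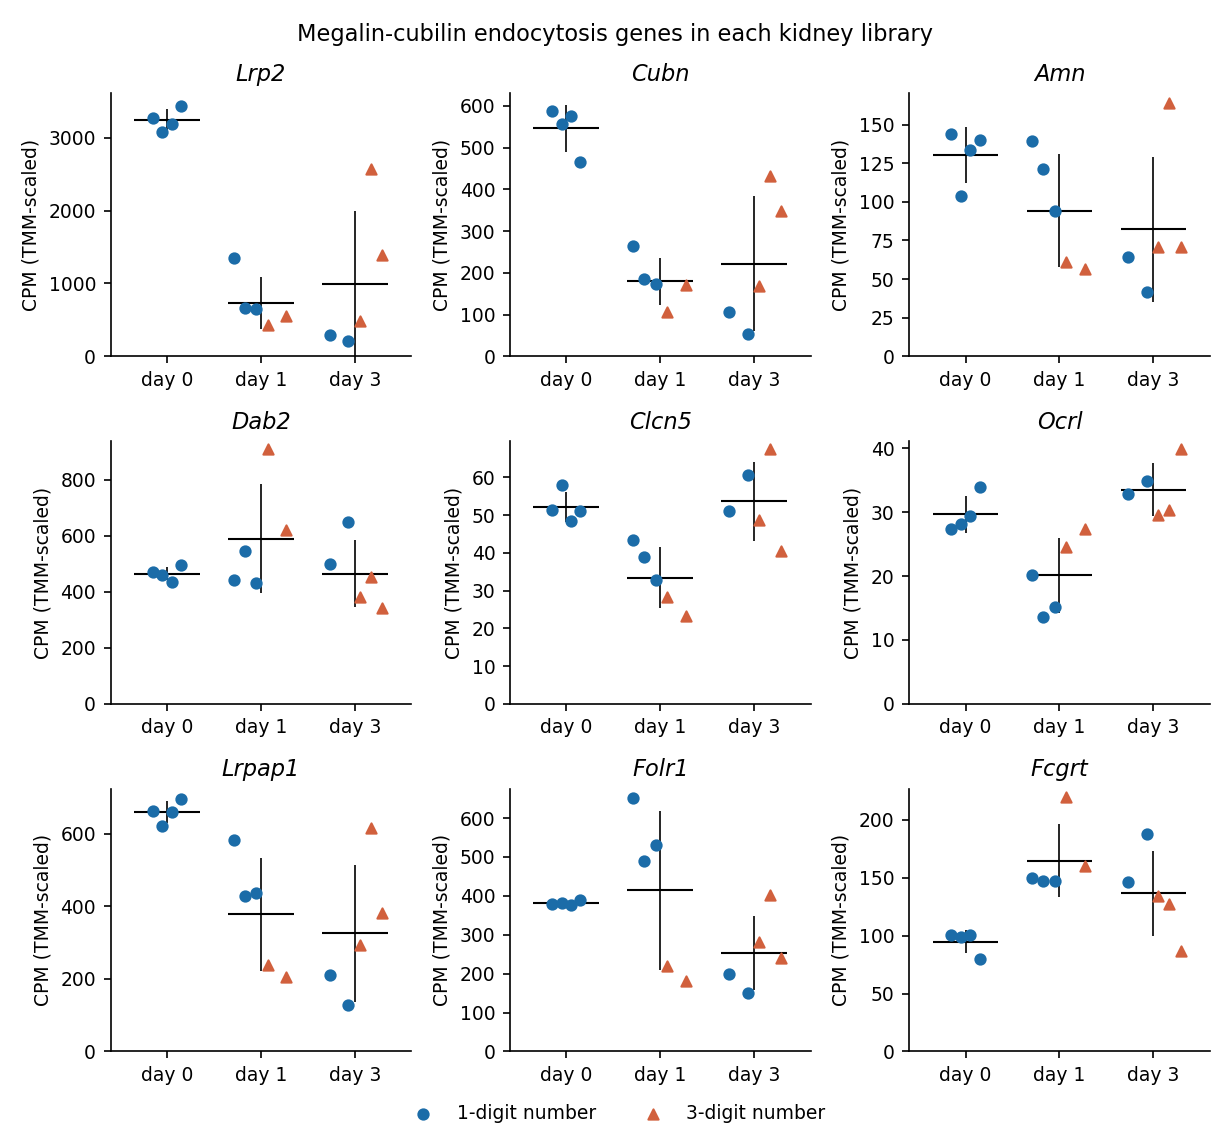
Level of each of the 9 genes in CPM (linear vertical axis) in every library by day, with 1 point per library marked by whether its library number has 1 or 3 digits. All day 1 and day 3 libraries lie below the day 0 libraries for Lrp2, Cubn and Lrpap1. Of all genes tested, 20.5% have all day 1 libraries below day 0 and 16.5% all day 3 libraries. The day 3 libraries of Lrp2 spread from 206 to 2569.9 CPM.

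Lrp2, the large receptor of the LDL receptor family that gives the system its capacity, had 3275, 3086, 3192 and 3436 CPM in the 4 day 0 libraries. The day 1 libraries had 433, 556, 1344, 663 and 651 CPM in replicate order, and those of day 3 had 488, 2569.9, 1397, 298 and 206 CPM. Every injured kidney was below every day 0 kidney, but replicate 2 of day 3 came close, while replicate 5 of that day was the lowest of all. All day 1 libraries were below day 0 for 20.5% of all genes tested, and all day 3 libraries for 16.5%. The mean went from 3247 ± 148 CPM (SD, n = 4) to 729 ± 356 CPM (n = 5) at day 1 and 992 ± 1001 CPM (n = 5) at day 3, where the SD was as large as the mean. Lrp2 was 4.45-fold lower at day 1, a log2 fold change of -2.15 (SE 0.60, adjusted p = 0.0107). The fold change at day 3 was -1.71 (SE 0.59, adjusted p = 0.0382). Between day 1 and day 3 the log2 difference was 0.44 (SE 0.55, adjusted p = 0.619). Without replicate 2 of day 3 the day 3 value was -2.44, and the difference between the later days was -0.29.

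The day 3 result passed in 15 of 25 alternatives. Lrp2 did not pass without any 1 of the 4 day 0 libraries or without replicate 1, 4 or 5 of day 3, nor without TMM scaling, with only the days compared or with only 3-digit libraries, and its adjusted p-value ranged from 2.3e-05 to 0.0848 over the 25. The day 1 fall passed in all 25, with an adjusted p-value of at most 0.0264. In a fit of day and number format, the 1-digit libraries fell by 3.67-fold at day 1 (log2 -1.87 (SE 0.44, adjusted p = 0.00248)) and by 12.9-fold at day 3 (log2 -3.69 (SE 0.57, adjusted p = 0.000209)). The 3-digit libraries had -2.72 (SE 0.54, adjusted p = 0.00164) at day 1 and -1.13 (SE 0.42, adjusted p = 0.056) at day 3. From day 1 to day 3, Lrp2 thus fell further among the 1-digit libraries (-1.81 (SE 0.53, adjusted p = 0.0193)), and the value among the 3-digit libraries was of the opposite sign (1.59 (SE 0.52, adjusted p = 0.0584)).

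Cubn, the receptor that binds intrinsic factor-vitamin B12, albumin and transferrin but has no membrane span of its own, had 588, 557, 576 and 464 CPM at day 0. It had 107, 171, 264, 184 and 173 CPM at day 1 and 169, 433, 347, 107 and 53.0 CPM at day 3. All injured kidneys were below the day 0 range, as for 20.5% of all genes tested at day 1 and 16.5% at day 3. Replicates 2 and 3 of day 3 were the nearest to that range. The mean was 546 ± 56.0 CPM (SD, n = 4), then 179.8 ± 56.0 CPM (n = 5) and 222 ± 162 CPM (n = 5). Cubn was 3.04-fold lower at day 1, a log2 fold change of -1.60 (SE 0.46, adjusted p = 0.0122), and at day 3 the change was -1.30 (SE 0.45, adjusted p = 0.0397). As for Lrp2, the day 1 call held in all 25 alternatives and the day 3 call in 16 of 25. The day 3 call was lost without any 1 day 0 library, without replicate 1 or 4 of day 3, without TMM scaling, with only the days compared and with only 3-digit libraries. Among 1-digit libraries the changes were -1.40 (SE 0.32, adjusted p = 0.00204) at day 1 and -2.77 (SE 0.40, adjusted p = 0.00013) at day 3. Among 3-digit libraries they were -1.97 (SE 0.38, adjusted p = 0.00137) and -0.79 (SE 0.31, adjusted p = 0.067).

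Amn anchors cubilin in the membrane and carries it to the cell surface. It had 144, 104, 134 and 139.8 CPM at day 0, 61.0, 56.5, 139, 121 and 93.9 CPM at day 1 and 70.7, 164, 70.9, 64.2 and 41.4 CPM at day 3. The groups overlapped: 3 of 5 day 1 libraries and 4 of 5 day 3 libraries were below the day 0 range, and replicate 2 of day 3 was above it. Its log2 difference from day 0 was -0.47 (SE 0.35, adjusted p = 0.29) at day 1 and -0.66 (SE 0.35, adjusted p = 0.151) at day 3, neither past the threshold. Without replicate 2 of day 3 the day 3 value was -1.08 and passed. Among 1-digit libraries it was -0.14 (SE 0.27, adjusted p = 0.676) at day 1, and Amn fell at day 3 (-1.30 (SE 0.33, adjusted p = 0.00493)). Among 3-digit libraries Amn fell at day 1 (-1.15 (SE 0.33, adjusted p = 0.0129)), and the day 3 value was -0.36 (SE 0.27, adjusted p = 0.341).

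Because cubilin and amnionless act as 1 complex and megalin as its partner, ratios within a library were compared, which do not depend on how the library was scaled. The log2 ratio of Cubn to Lrp2 was -2.58 ± 0.21 (SD, n = 4) at day 0 and -1.96 ± 0.24 (n = 5) at day 1, a difference of 0.61 (exact permutation p = 0.0159, adjusted p = 0.0238 over the 6 ratio tests). All 5 day 1 libraries were above all 4 day 0 libraries, so Lrp2 fell by more than Cubn. At day 3 the difference was 0.67 (exact permutation p = 0.0635, adjusted p = 0.0635). The log2 ratio of Amn to Cubn rose from -2.07 ± 0.28 (n = 4) to -0.96 ± 0.37 (n = 5) at day 1, a difference of 1.11 (exact permutation p = 0.0159, adjusted p = 0.0238), and was 0.86 higher at day 3 (exact permutation p = 0.0635, adjusted p = 0.0635). The tests were two-sided, and 0.0159 is the smallest p that 4 against 5 libraries allow.

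Dab2 binds the tail of megalin and recruits it to clathrin-coated pits. Its level did not follow that of the receptors: it had 472, 459.5, 436 and 495 CPM at day 0, 910.0, 621, 441, 546 and 433 CPM at day 1 and 383, 452, 343, 499 and 649 CPM at day 3. The later days lay on both sides of the day 0 range, and replicate 1 of day 1 was the highest library. The log2 difference from day 0 was 0.34 (SE 0.23, adjusted p = 0.236) at day 1 and -0.00 (SE 0.23, adjusted p = 0.998) at day 3. The log2 ratio of Dab2 to Lrp2 within a library therefore moved from -2.80 ± 0.05 (SD, n = 4) at day 0 to -0.25 ± 0.98 (n = 5) at day 1 and -0.50 ± 1.77 (n = 5) at day 3. Both differences, 2.55 and 2.31, had an exact permutation p of 0.0159 (adjusted p = 0.0238), and no later library overlapped day 0. Since Lrp2 itself was below day 0 in every later library, this separation largely restates its fall. Among 3-digit libraries alone, Dab2 rose at day 1 (0.72 (SE 0.18, adjusted p = 0.0066)), while the 1-digit value was 0.02 (SE 0.16, adjusted p = 0.91).

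**Figure D2:**
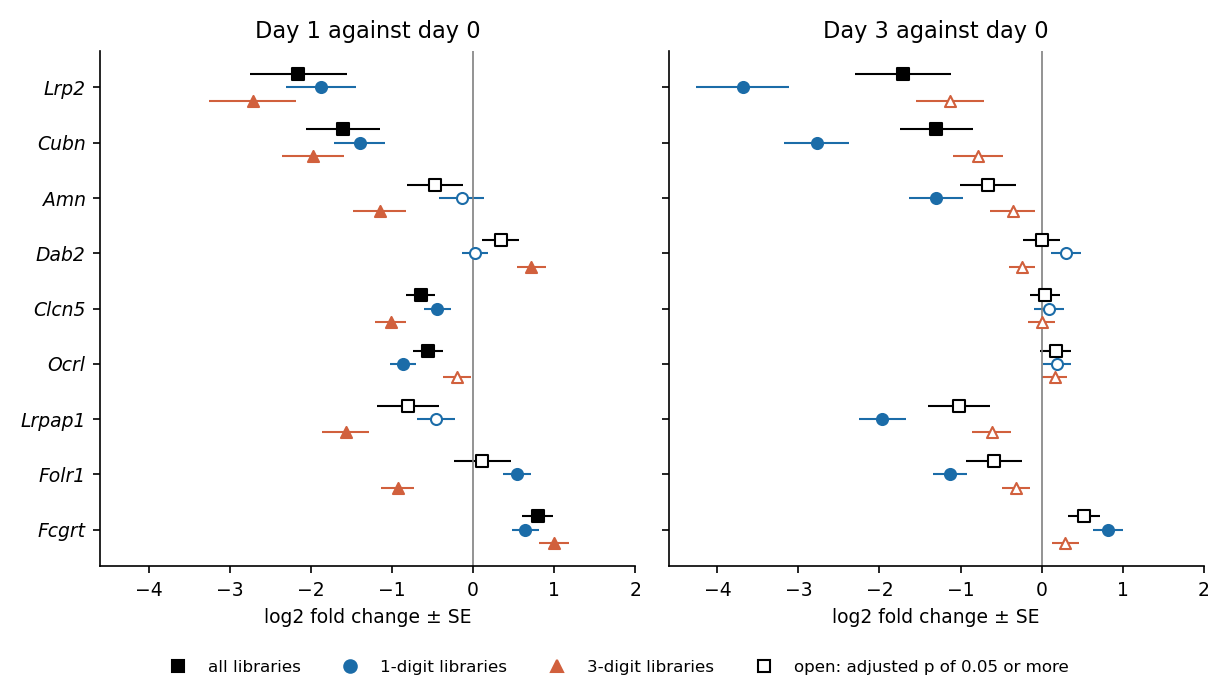
Log2 fold change of each of the 9 genes (vertical axis) against day 0 at day 1 and day 3, over all libraries and within 1-digit and 3-digit libraries, with bars of 1 SE and filled points for an adjusted p under 0.05. Lrp2 lies at -2.15 at day 1 over all libraries, and at day 3 its 1-digit value of -3.69 lies far below the 3-digit value of -1.13.

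Clcn5 encodes the exchanger ClC-5 of early endosomes, and its level was lower at day 1 and back among the day 0 values at day 3. It had 51.4, 58.0, 48.5 and 50.98 CPM at day 0, 28.3, 23.3, 43.5, 38.9 and 32.9 CPM at day 1 and 48.7, 67.4, 40.6, 51.1 and 60.5 CPM at day 3. All 5 day 1 libraries were below day 0, as for 20.5% of all genes tested, whereas the day 3 libraries lay below, within and above the day 0 range. Clcn5 was 1.56-fold lower at day 1, a log2 fold change of -0.65 (SE 0.18, adjusted p = 0.0116), and then rose from day 1 to day 3 by 0.68 (SE 0.17, adjusted p = 0.0182). The rise passed in 24 of 25 alternatives and not with only the days compared. At day 3 the log2 difference from day 0 was 0.04 (SE 0.18, adjusted p = 0.883). The day 1 fall passed within both number formats, at -0.44 (SE 0.17, adjusted p = 0.0355) for 1-digit and -1.02 (SE 0.20, adjusted p = 0.00137) for 3-digit libraries. The rise to day 3 passed among 3-digit libraries (1.02 (SE 0.20, adjusted p = 0.00781)), and the 1-digit value was 0.54 (SE 0.20, adjusted p = 0.0505).

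Ocrl, a phosphatase of inositol lipids on endosomes and the trans-Golgi network, had 27.3, 28.2, 29.4 and 33.9 CPM at day 0 and 24.5, 27.3, 20.2, 13.7 and 15.1 CPM at day 1. At day 3 it had 29.5, 30.3, 39.8, 32.9 and 34.9 CPM. The day 1 libraries were all below day 0 (as for 20.5% of all genes tested), replicate 2 only just, and no day 3 library was below day 0. Ocrl was 1.47-fold lower at day 1 (-0.56 (SE 0.19, adjusted p = 0.0285)) and rose again to day 3 (0.73 (SE 0.18, adjusted p = 0.0162)). The day 1 fall passed in 18 of 25 alternatives and was lost without replicate 3 or 4 of day 0 or replicate 4 or 5 of day 1. It was also lost without TMM scaling, with the replicate number as a block and with only 3-digit libraries. The rise passed in 23 of 25, and was lost with only the days compared and with only 3-digit libraries. Within the formats the day 1 fall passed among 1-digit libraries (-0.86 (SE 0.16, adjusted p = 0.000467)) and not among 3-digit libraries (-0.20 (SE 0.17, adjusted p = 0.386)), and the difference between the formats at day 1 passed as well (0.67 (SE 0.18, adjusted p = 0.0135)). The rise to day 3 passed among 1-digit libraries (1.05 (SE 0.18, adjusted p = 0.0012)), and the 3-digit value was 0.36 (SE 0.18, adjusted p = 0.212). Both endosomal genes thus had their lowest mean at day 1, when Lrp2 and Cubn were also low, and differed from those receptors at day 3 by not passing the test against day 0. That contrast between genes was not itself tested.

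Lrpap1 encodes the receptor-associated protein, which keeps megalin from binding ligands in the endoplasmic reticulum. It had 663, 621, 661 and 696 CPM at day 0, 238, 206, 583, 428 and 437 CPM at day 1 and 293, 617, 381, 210.5 and 127 CPM at day 3. All 10 later libraries were below all day 0 libraries, but the fit over all libraries passed neither day: -0.80 (SE 0.38, adjusted p = 0.101) at day 1 and -1.02 (SE 0.38, adjusted p = 0.0522) at day 3. The day 1 value passed in 2 of 25 alternatives and the day 3 value in 6, among them DESeq2 and the fits without replicate 1, 2 or 3 of day 1 or replicate 2 of day 3. Of all genes tested, 20.5% had all day 1 libraries below day 0 and 16.5% had all day 3 libraries below it. Lrpap1 fell in 1-digit libraries at day 3 (-1.97 (SE 0.29, adjusted p = 0.000157)) and in 3-digit libraries at day 1 (-1.57 (SE 0.28, adjusted p = 0.000917)). The other values were -0.45 (SE 0.23, adjusted p = 0.113) for 1-digit libraries at day 1 and -0.62 (SE 0.24, adjusted p = 0.0597) for 3-digit libraries at day 3.

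Folr1, the receptor that takes up filtered folate, was the gene whose day 1 direction turned with the number format. It had 380.1, 382, 377 and 390.2 CPM at day 0, the tightest group of any of the 9 genes relative to its mean. At day 1 the 3-digit libraries had 219.8 and 182 CPM and the 1-digit libraries 650.5, 491 and 529.8 CPM, on opposite sides of day 0. Folr1 rose among 1-digit libraries (0.54 (SE 0.17, adjusted p = 0.0167)) and fell among 3-digit libraries (-0.93 (SE 0.21, adjusted p = 0.00344)), so the pooled value of 0.12 (SE 0.35, adjusted p = 0.806) describes neither. At day 3 it had 281, 401, 239, 199.9 and 149 CPM, below day 0 in 4 of 5 libraries, with a pooled log2 difference of -0.59 (SE 0.35, adjusted p = 0.201). The 1-digit libraries fell (-1.13 (SE 0.21, adjusted p = 0.000728)), and the 3-digit value was -0.32 (SE 0.18, adjusted p = 0.188).

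Fcgrt encodes the neonatal Fc receptor, which returns IgG and albumin from acid endosomes to the cell surface, and was the only one of the 9 genes that rose at day 1 in the fit over all libraries. It had 101, 98.8, 100.4 and 79.6 CPM at day 0, 219.8, 159.7, 149, 147 and 148 CPM at day 1 and 134, 127, 86.4, 146 and 188 CPM at day 3. Every day 1 library was above day 0, and 21.5% of all genes tested had this pattern. At day 3, replicate 3 lay within the day 0 range and the other 4 above it. Fcgrt was 1.74-fold higher at day 1, a log2 fold change of 0.80 (SE 0.20, adjusted p = 0.00559), and the day 3 difference of 0.52 (SE 0.19, adjusted p = 0.0508) did not pass. It passed in 8 of 25 alternatives, among them unstranded counts, no TMM scaling, DESeq2 and the fits without replicate 1 of day 1 or replicate 2 or 3 of day 3. The day 1 rise passed in 1-digit (0.64 (SE 0.17, adjusted p = 0.00475)) and 3-digit libraries (1.00 (SE 0.18, adjusted p = 0.001)) and in all 25 alternatives. At day 3 Fcgrt was higher in 1-digit libraries (0.82 (SE 0.18, adjusted p = 0.0025)), and the 3-digit value was 0.29 (SE 0.17, adjusted p = 0.199). Fcgrt is also expressed by endothelial cells, podocytes and macrophages. The summed levels of those markers at day 0 and day 1 ranged from 296 to 367 and from 361 to 577 CPM for 8 endothelial genes, from 283 to 358 and from 334 to 451 CPM for 6 podocyte genes, and from 204 to 325 and from 167 to 193 CPM for 9 macrophage genes. By gene, 2 endothelial genes were higher and 1 lower at day 1 (median log2 fold change 0.41), no podocyte gene was called (-0.05), and 1 macrophage gene was higher and 1 lower, with a median of 0.38 and a range of -2.04 to 3.57 although the sum was lower. These counts stand beside 23.3% of all genes higher and 18.7% lower at day 1. The part of these cell types in the Fcgrt result was not tested.

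The number format went with large differences within a day. At day 1, 6 of the 9 genes differed between 3-digit and 1-digit libraries, beside 35% of all genes tested. Dab2 and Ocrl were higher in the 3-digit libraries, and Amn, Clcn5, Lrpap1 and Folr1 were lower, with Folr1 lowest (-1.47 (SE 0.22, adjusted p = 0.000566)). At day 3, 4 of the 9 differed, beside 18.5% of all genes, and all 4 were higher in the 3-digit libraries: Lrp2 (2.56 (SE 0.55, adjusted p = 0.0104)), Cubn (1.99 (SE 0.39, adjusted p = 0.00781)), Lrpap1 (1.35 (SE 0.29, adjusted p = 0.0111)) and Folr1 (0.81 (SE 0.22, adjusted p = 0.0238)). With each library left out, these differences ranged over 1.90 to 2.98 for Lrp2 and 1.55 to 2.58 for Cubn. For Lrpap1 the range was 0.996 to 1.76 and for Folr1 0.57 to 1.04. Without replicate 4 or 5 of day 3, only 1 library with a 1-digit number remained on that day. The spread then comes from the other groups, so calls in those fits do not decide how far the day 3 counts hang on 1 library. Folr1 did not pass without replicate 2. The share of all genes was 8.26% without replicate 2, 8.06% without replicate 3 and 33.5% without replicate 1 of day 3. Lrp2 moved to 1.90 without replicate 2, which passed, and Cubn to 2.58 without replicate 4. At day 1 the count fell to 3 without replicate 4 (Dab2, Lrpap1 and Folr1), beside 27.1% of all genes. Without replicate 1 or 2 of day 1, only 1 library with a 3-digit number remained, so effect sizes alone are given. With each library left out, Dab2 ranged over 0.38 to 0.94 and Ocrl over 0.55 to 0.85. Amn ranged over -1.15 to -0.87, Clcn5 over -0.74 to -0.44, Lrpap1 over -1.24 to -0.96 and Folr1 over -1.63 to -1.34. Amn and Clcn5 also did not pass without replicate 3, nor Clcn5 without any 1 day 0 library. Without TMM scaling the median of all genes for this day 1 difference moved from 0.03 to 0.24, the calls over all genes went from 2656 higher and 2345 lower to 3909 and 1439, and the genes called went from 2 higher and 4 lower to 3 higher and 2 lower. Amn and Clcn5 then no longer passed and Fcgrt did, as higher, while none of the 6 turned in direction.

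The format difference itself changed between the days for 7 of the 9 genes, beside 17.6% of all genes. It was 3.40 (SE 0.74, adjusted p = 0.00793) for Lrp2, 2.56 (SE 0.54, adjusted p = 0.00681) for Cubn, 2.47 (SE 0.41, adjusted p = 0.00219) for Lrpap1 and 2.29 (SE 0.31, adjusted p = 0.000788) for Folr1, each the day 3 difference minus that of day 1. By mean level, the 3-digit libraries were the lower ones for Lrp2 and Cubn at day 1, where the difference did not pass the test, and the higher ones at day 3. The summed level of the 8 tubular injury genes, in which abundant genes weigh most, was 31485 to 37147 CPM for 3-digit and 8908 to 16916 CPM for 1-digit kidneys of day 1, whereas at day 3 it was 6704 to 33600 CPM in the former and 37017 to 44618 CPM in the latter. At day 0 it was 1192 to 1566 CPM. By gene, 2 of the 8 were higher in 3-digit libraries at day 1, 1 was lower and 5 were not called (median log2 difference 0.03, range -1.71 to 5.01), and at day 3 none was higher and 1 was lower (median -0.71). Of all genes tested, 35% differed by format at day 1 and 18.5% at day 3. The part of the injury genes in the differences between libraries was not tested.

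As Lrp2, Cubn and Amn are known to be expressed mainly by proximal tubule cells in the kidney, while Ocrl, Lrpap1 and Fcgrt are expressed more widely, their levels were set beside 17 other proximal tubule genes. In bulk tissue, fewer proximal tubule cells and less RNA of these genes per cell cannot be told apart. At day 1, 4 of the 17 fell (23.5%, beside 18.7% of all genes lower) and none rose, with a median log2 fold change of -0.87. None of the 17 had a value below that of Lrp2 (-2.15), but the lowest of them, -2.14, was nearly equal to it. Within the formats at day 1, 0 of the 17 were below Lrp2 among 1-digit libraries and 5 among 3-digit libraries. At day 3, 7 fell (41.2%, beside 13.8%) and none rose, the median was -1.53, and 7 of the 17 had a value below that of Lrp2 (-1.71). Among the 1-digit libraries of day 1 the summed level of the list was 50289 to 65197 CPM, which spans the day 0 range, while Lrp2 there was 3.67-fold lower and 5 of the 17 fell (29.4%, beside 29.6% of all genes lower). In the 3-digit libraries of that day the summed level was 23959 to 37451 CPM and 13 of the 17 fell (76.5%, beside 19%).

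By library, Lrp2 relative to its day 0 mean was further down than the median of the 17 genes in 9 of the 10 later libraries. In replicates 3, 4 and 5 of day 1, Lrp2 stood at -1.27, -2.29 and -2.32 on the log2 scale, and the median of the list at -0.10, -0.79 and -0.42. In replicates 1 and 2 of day 1 the values were -2.91 and -2.54 for Lrp2, and -1.59 and -2.32 for the list. At day 3 they were -2.73, -0.34, -1.22, -3.44 and -3.98 for Lrp2, and -1.36, -0.28, -1.58, -2.04 and -2.15 for the list. Replicate 3 of day 3 was the library in which the list was lower than Lrp2.

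**Figure D3:**
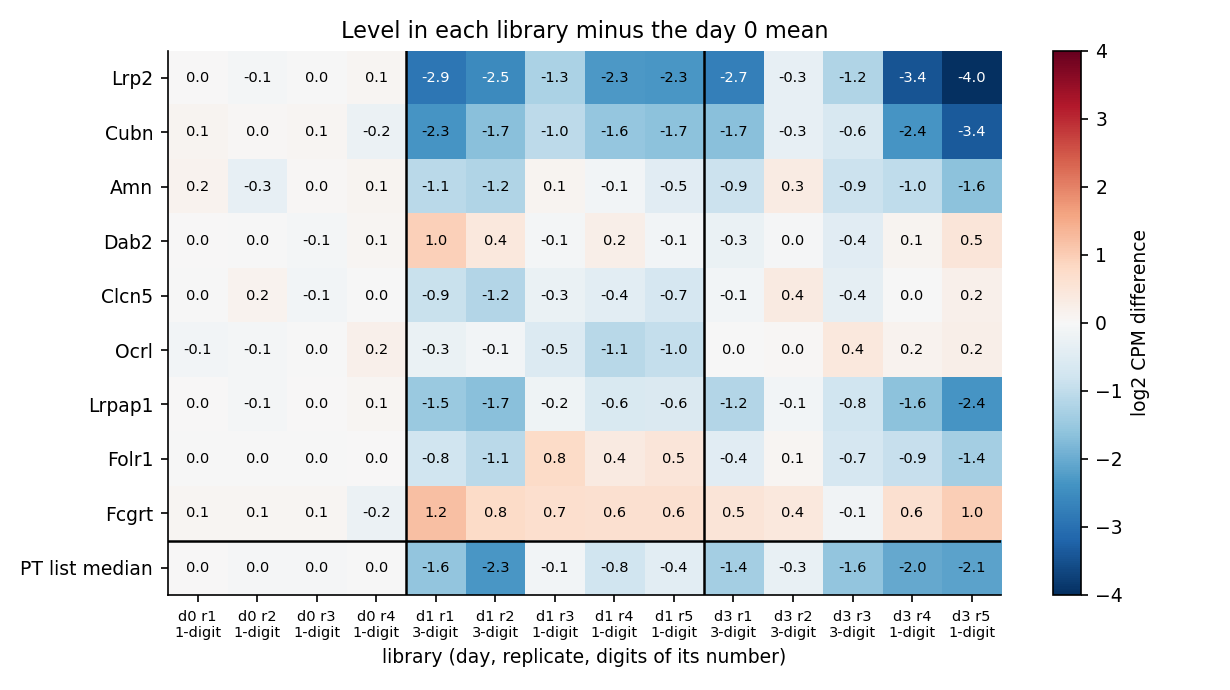
Log2 level of each of the 9 genes and the median of 17 proximal tubule genes (bottom row) in every library relative to the day 0 mean, with the log2 difference written in each cell and libraries marked by 1-digit or 3-digit number. In the 1-digit libraries of day 1 the list median is between -0.79 and -0.10 while Lrp2 is between -2.32 and -1.27.

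Markers of other cell types were read the same way, by their sums and by gene. The 6 thick limb and distal tubule genes had summed levels of 7064 to 9797 CPM at day 0, 3435 to 5995 CPM at day 1 and 2239 to 3469 CPM at day 3. The 8 fibroblast and pericyte genes had 142 to 150 CPM at day 0, 166 to 554 CPM at day 1 and 576 to 1446 CPM at day 3, and the 6 collecting duct genes 713 to 993, 341 to 688 and 198 to 665 CPM. Of the thick limb and distal tubule genes, 4 of 6 fell at day 1 and 5 at day 3, and of the collecting duct genes 2 of 6 and 4 (beside 18.7% and 13.8% of all genes lower). Of the fibroblast and pericyte genes, 3 of 8 rose at day 1 and 7 at day 3 (beside 23.3% and 19.5% of all genes higher). The 6 lymphocyte genes summed to at most 1.57 CPM in any library, and none passed the filter. What part these cell types had in the levels of the 9 genes was not tested.

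The wider pathway was read from 6 lists of 105 further genes, of which 103 were tested. At day 1, 22 were higher and 23 lower, and at day 3, 17 were higher and 18 lower. These are 43.7% and 34% of the genes tested, close to the 42.1% and 33.3% of all genes, so the counts by list below are descriptions. Among chaperones and partners, 1 of 7 rose and 1 fell at day 1, and 1 rose and 4 fell at day 3. B2m, the light chain of the neonatal Fc receptor and of MHC class I, rose at both days, by 0.44 (SE 0.15, adjusted p = 0.0256) and 0.54 (SE 0.15, adjusted p = 0.0129) on the log2 scale. Calr, a chaperone of the endoplasmic reticulum, fell from a mean of 1159.8 CPM to 682 CPM at day 1 (-0.77 (SE 0.29, adjusted p = 0.0463)) and 549 CPM at day 3 (-1.08 (SE 0.29, adjusted p = 0.0123)).

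Of 22 coat and adaptor genes, 7 rose and 4 fell at day 1, and 6 rose and 2 fell at day 3. Myo6, the motor that carries new vesicles inward from the brush border, fell most at day 1 (-0.87 (SE 0.16, adjusted p = 0.000889)), and the epsin gene Epn1 fell most at day 3 (-0.55 (SE 0.15, adjusted p = 0.0145)). Of 22 endosome traffic genes, 3 rose and 5 fell at day 1, and 2 rose and 4 fell at day 3. Ehd4, which acts in endosomal recycling, rose at both days (1.35 (SE 0.24, adjusted p = 0.000767) and 0.98 (SE 0.24, adjusted p = 0.00676)). The early endosome GTPase gene Rab5b fell most at day 1 (-0.88 (SE 0.25, adjusted p = 0.0119)) and the late endosome gene Rab7 fell most at day 3 (-0.42 (SE 0.14, adjusted p = 0.0367)).

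Acidification genes, mainly subunits of the vesicular proton pump, were tested for 19 of 20: 2 rose and 5 fell at day 1, and none rose and 4 fell at day 3. Atp6v1f, a pump subunit, rose at day 1 (0.71 (SE 0.15, adjusted p = 0.00217)), and the sodium-proton exchanger gene Slc9a3 fell at both days (-1.004 with SE 0.21 and adjusted p = 0.00246, and -0.80 (SE 0.21, adjusted p = 0.0113)). Of 20 lysosomal genes, 7 rose and 3 fell at day 1, and 6 rose and 3 fell at day 3. The protease gene Ctsl rose from a mean of 403 CPM to 1904 CPM at day 1 (2.24 (SE 0.40, adjusted p = 0.000811)) and 1538 CPM at day 3 (1.93 (SE 0.40, adjusted p = 0.00255)).

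In the LDL receptor family list, which also holds the folate receptor gene Folr2 from outside that family (called at neither day), 13 of 14 genes were tested. Of these, 2 rose and 5 fell at day 1, and 2 rose and 1 fell at day 3. Lrp8 rose most at day 1, from a mean of 6.79 to 19.3 CPM (1.51 (SE 0.38, adjusted p = 0.00635)). Lrp1, a scavenging receptor of many cell types and a giant receptor of the same family as megalin, rose most at day 3, from 37.4 to 101 CPM (1.44 (SE 0.32, adjusted p = 0.00435)). Lrp4 fell at both days (-1.06 (SE 0.20, adjusted p = 0.00108) and -0.60 (SE 0.20, adjusted p = 0.0311)).

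**Figure D4:**
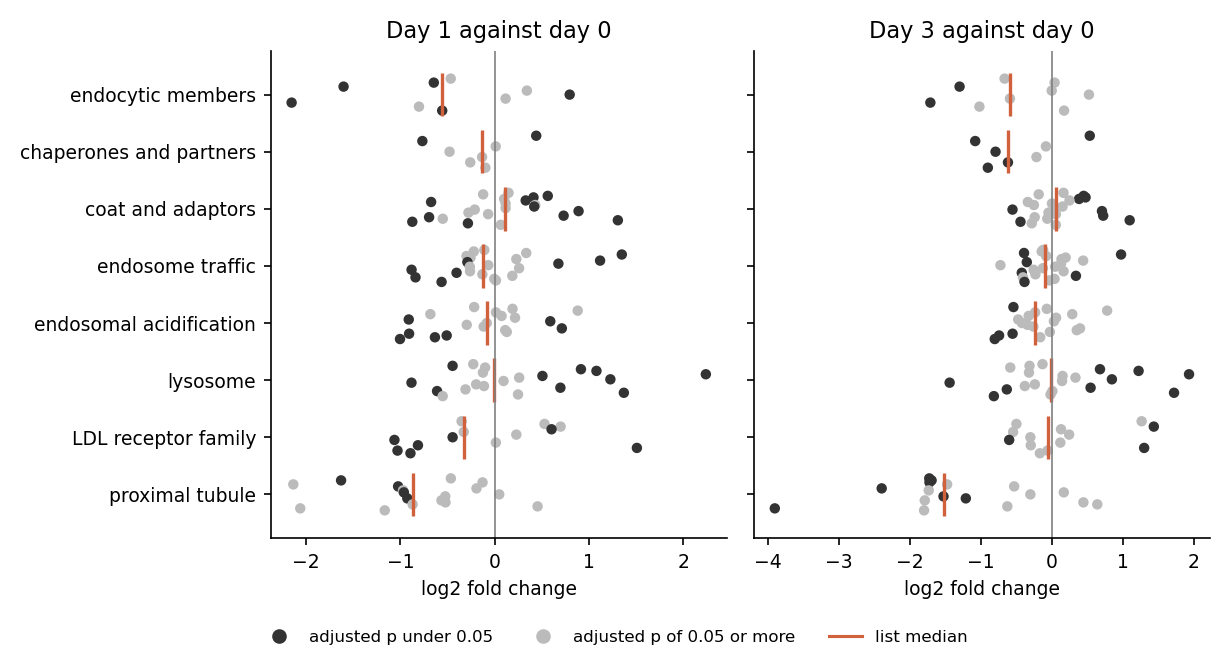
Log2 fold change against day 0 (horizontal axis) of each tested gene of the 6 pathway lists, of the 9 genes (top row) and of the proximal tubule list (bottom row) at day 1 and day 3, with dark points for an adjusted p under 0.05, grey points for the others and a bar at each list's median. The medians of the 6 pathway lists lie between -0.62 and 0.11, and at day 1 each of them holds dark points on both sides of 0.

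Over the 14 libraries, the gene whose log2 CPM was most like that of Lrp2 among all tested was Cubn (Pearson's r = 0.980), followed by Gcnt1 (0.975), 3110057O12Rik (0.974), Pter (0.974) and D3Ertd751e (0.972). The genes most like Cubn were Lrp2, Pter (0.977) and Ak3 (0.976). These values are descriptions, since all genes share the same libraries and the same change between days. Lrpap1 was most like Pyroxd2 (0.981), Fggy (0.981) and Sardh (0.980), Amn was most like Abcc6 (0.966), Gm16861 (0.958) and Lrpap1 (0.948), and Folr1 was most like Asl (0.965), Akr1a1 (0.962) and Eddm3b (0.958). The endosomal genes had other neighbours, Gapvd1 (0.958), Ddi2 (0.943) and Ccdc186 (0.926) for Clcn5 and Ago1 (0.964), Ttc3 (0.961) and Dip2a (0.955) for Ocrl. Dab2 was most like Selenbp1 (0.919), Trub2 (0.877) and Fdps (0.876), and Fcgrt most like Itgb1bp1 (0.940), Ppp1ca (0.919) and Cacfd1 (0.918).

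Among the 9 genes themselves, Lrp2 had an r of 0.927 with Lrpap1, 0.835 with Amn and 0.590 with Folr1. Its r was 0.348 with Clcn5, 0.127 with Ocrl, -0.455 with Dab2 and -0.810 with Fcgrt. Dab2 and Fcgrt had an r of 0.702 with each other.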

How the data were processed

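Total RNA was extracted with TRIzol from mouse kidneys and turned into libraries by Illumina's TruSeq method. Per the labels, the authors trimmed reads with Trimmomatic and aligned them with STAR to mm10. Their versions, and the gene annotation used, are not given in the sources used here. The authors deposited raw counts per gene symbol, 1 file per library. Column 4, the strand that held 98.5% to 98.7% of strand-assigned reads, was used. The 4 entries that name no gene (29.0% to 38.3% of reads) were left out of library sizes and tests.

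Counts were filtered by filterByExpr with the day as group, scaled by TMM and tested by edgeR 4.0.16 (R 4.3.3) with the quasi-likelihood test, 1 term per day over 14 libraries, and Benjamini-Hochberg adjustment. Number formats were tested with 1 term per day and format. CPM values carry the TMM scaling. A prior count of 2 was added for log2 CPM. Standard errors came from the F value. Ratios were tested with SciPy 1.17.1 by exact permutation, two-sided. On simulated counts of 13689 genes for day 1 against day 0, 194 of 200 genes changed by a log2 of 2 were recovered with 10 false calls among 204. The simulation gave every gene the same spread, with as many rises as falls and no difference between number formats. It therefore does not show how the test fares where the formats differ and far more genes change, as in these data.

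The members and lists were chosen with earlier results of these data known. Genes named from a list are those that rose or fell most among called genes with a mean of at least 1 CPM. Some genes that this rule picks are not reported here. Genes most like a member are those of highest Pearson's r, 5 for Lrp2 and 3 for each other member. Mesd, Washc5 and Clcn4 were matched through older symbols. Gene models were GENCODE M21 (GRCm38), and lengths are unions of exons. Promoter sequences are from RefSeq (GRCm38.p6). Alternatives were the unstranded column, RLE factors, no TMM, no filter, 10 counts in every library, DESeq2 1.42.0, a block for the replicate number, a term for the number format, only the days compared, only 1-digit or 3-digit libraries, prior count 0.5 and each library left out.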

Additional observations from a re-analysis of the deposited data

Results flagged for a closer look

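In 36 groups of 4 or 5 libraries (each gene and ratio within a day), 3 held a library far from the others, where chance gives about 1.8, since about 1 in 20 groups is picked out by chance. Fcgrt in replicate 4 of day 0 stood at 6.32 on the log2 CPM scale, with the other day 0 libraries between 6.63 and 6.66. Fcgrt in replicate 1 of day 1 stood at 7.78, with the others between 7.21 and 7.32. The log2 ratio of Cubn to Lrp2 in replicate 4 of day 0 was -2.89, with the others between -2.48 and -2.47.

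The difference between 3-digit and 1-digit libraries was not the same at day 3 as at day 1 for 7 genes, tested as an interaction in edgeR. The day 3 difference minus that of day 1, on the log2 scale, was 3.40 for Lrp2, 2.56 for Cubn, 1.95 for Amn, 2.47 for Lrpap1 and 2.29 for Folr1. It was -1.24 for Dab2 and -0.88 for Fcgrt. Without replicate 1 of day 1, only 1 library with a 3-digit number remained on that day, so calls from that fit are not given.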

How the results depend on the processing

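At day 1, 5 of the 9 genes passed; 8 did with only the 3-digit libraries (beside 42.9% of all genes), and 4 to 5 with each library left out. At day 3, 2 passed. This became 1 without TMM, 4 with DESeq2, 0 with only the days compared, 6 with only 1-digit and 0 with only 3-digit libraries, beside 34.3%, 38.7%, 37.1%, 56.3% and 34% of all genes in turn. It was 0 to 5 with each library left out: 0 without any day 0 library or replicate 1 or 4 of day 3, 1 without replicate 5 and 5 without replicate 2 of day 3 (with Amn, Lrpap1 and Fcgrt), and 4 without replicate 1 of day 1. From day 1 to day 3, 2 passed, against 0 with only the days compared, and 7 and 5 in separate fits of only the 1-digit or only the 3-digit libraries (6 and 4 in the joint fit of day and format, to which the separate fits added Clcn5 and Cubn), beside 6.02%, 36% and 16% of all genes, and 2 to 3 with libraries left out. The format counts of 6 at day 1, 4 at day 3 and 7 for their difference ranged over 2 to 6, 0 to 6 and 4 to 7 with libraries left out, and the shares of all genes over 14% to 39.4%, 0.638% to 33.5% and 8.85% to 22.1%. The lowest of these format shares came from fits that leave 1 library in a group, where the other groups give the spread. With libraries left out, the shares of all genes ranged over 32.9% to 45.9% at day 1, 23% to 39.7% at day 3 and 8.9% to 23.5% between these days. Other pathway genes ranged over 35 to 48 at day 1 and 20 to 41 at day 3. The cause was not tested.

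With only 1-digit libraries, the ratio differences were 0.54 for Cubn to Lrp2, 1.27 for Amn to Cubn and 1.98 for Dab2 to Lrp2 at day 1 (exact permutation p = 0.0571) and 4.003 for Dab2 to Lrp2 at day 3 (exact permutation p = 0.133), each the smallest p these sizes allow. With libraries left out, Cubn to Lrp2 ranged over 0.51 to 0.71 at day 1 and 0.56 to 0.83 at day 3 (0.83 without replicate 2 of day 3, exact permutation p = 0.0286). Amn to Cubn ranged over 0.99 to 1.27 and 0.65 to 1.13 (1.13 without replicate 3 of day 3, exact permutation p = 0.0286), and Dab2 to Lrp2 over 2.22 to 2.89 and 1.77 to 2.81. Of the single-gene values, 30 turned in sign, and 4 of them passed. In separate fits these were Folr1 at day 1 in 3-digit libraries (-0.93), and from day 1 to day 3 Lrp2 (-1.83) and Cubn (-1.39) in 1-digit and Lrpap1 (0.95) in 3-digit libraries. Amn (0.79) and Folr1 (0.61) in 3-digit and Dab2 (0.26) and Fcgrt (0.16) in 1-digit libraries also turned between these days, none past the threshold.

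Replicate numbers did not pair the libraries: 4 of 13 same-numbered pairs had deviations correlated over 0.1 (range -0.17 to 0.26), and 4 of 14 libraries correlated best with one of their own number. With the replicate number as a block, 4 genes passed at day 1 (Ocrl at -0.54, adjusted p = 0.0663), 2 at day 3 and 2 between the days. The shares of all genes were then 36.1%, 28.7% and 14.3%. Other pathway genes numbered 35 and 25 in place of 45 and 35. In all, 78 counts and ratios stayed close to the value reported or on the same side of the threshold, while 9 counts moved further and 4 ratios no longer passed, libraries left out aside. For single genes, 363 values kept their call, 24 came to pass and 14 no longer passed.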
